A study of Mus musculus with 12 samples.

Results

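The Dlx homeobox family was followed in embryonic mouse brain after YAP overexpression and after loss of Nf2. Its members here were Dlx1, Dlx2, Dlx5, Dlx6 and Dlx6os1, taken as every probe set whose only gene symbol in the platform annotation is one of these names. The rule gave 6 probe sets for 5 genes, of 45037 probe sets and 17097 genes on the arrays, and used no measured value. Dlx6 had 2 probe sets and the other members 1 each. Dlx1 and Dlx2 lie on chromosome 2, and Dlx5, Dlx6 and Dlx6os1 on chromosome 6.

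The study held 12 arrays in 4 groups of 3, all on a mixed genetic background. At E11.5 the tissue was forebrain with midbrain, of TetO-YAP1;Nes-rtTA embryos (YAP overexpression) and of Nes-rtTA embryos that lack the transgene (YAP control). The transgene is a doxycycline-dependent YAP1-S127A, a form of YAP that the Hippo kinases restrain less, and its driver rtTA is under the Nestin promoter of neural progenitors. The dam of the cross was given food with 200 mg/kg doxycycline from E7.5, and the labels do not say separately whether the dams of the control embryos were. Dorsal telencephalon at E13.5 came from Nf2F/F;Emx1-Cre embryos (Nf2 knockout) and from Nf2F/+;Emx1-Cre embryos (Nf2 control), so these controls also carry Cre and had lost 1 Nf2 allele where Cre is active. The labels call Emx1-Cre specific to the telencephalon. Merlin, the product of Nf2, promotes the activity of the Hippo kinases, which inhibit YAP. Arrays are numbered within a group, but no label ties them to separate embryos, so a p-value here measures only the spread among these samples, possibly a technical one.

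Dlx proteins are homeodomain transcription factors arranged in the genome as pairs that face each other and share enhancers. In the embryonic forebrain they mark the ventral telencephalon, the ganglionic eminences, where Dlx1 and Dlx2 come on in progenitors and Dlx5 and Dlx6 follow as cells differentiate. They drive the development of GABAergic neurons, many of which migrate from there into the cortex. The family also patterns branchial arches, limbs and other tissues outside the brain, and it acts in parts of the diencephalon.

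Promoters were looked up because these genes lie in 2 clusters and moved together at E11.5. Each sequence runs from 250 bases before to 50 bases after the annotated start, from RefSeq on GRCm38.p6, and 3 of the 5 members had an entry. Both strands were searched for TAATTA (a core that many homeodomains bind), CAGCTG (an E-box of bHLH factors) and GGAATG (the core of TEAD factors, the DNA-binding partners of YAP, which reads CATTCC on the other strand). Capitals mark matches to these motifs.
Dlx1, chr2:71529195-71529494, plus strand: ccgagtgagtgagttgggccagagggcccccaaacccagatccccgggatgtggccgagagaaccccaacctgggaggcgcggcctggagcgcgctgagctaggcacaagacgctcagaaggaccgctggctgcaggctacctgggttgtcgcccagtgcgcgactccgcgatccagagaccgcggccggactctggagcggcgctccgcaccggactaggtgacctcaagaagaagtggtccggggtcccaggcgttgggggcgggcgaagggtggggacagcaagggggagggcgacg
Dlx2, chr2:71546705-71547004, minus strand: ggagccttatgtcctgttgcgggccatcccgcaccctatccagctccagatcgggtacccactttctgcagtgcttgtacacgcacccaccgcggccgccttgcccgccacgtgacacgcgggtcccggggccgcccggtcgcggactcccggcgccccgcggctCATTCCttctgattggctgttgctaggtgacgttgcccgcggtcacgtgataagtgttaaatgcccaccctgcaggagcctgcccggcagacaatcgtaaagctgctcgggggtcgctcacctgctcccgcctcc
Dlx6os1, first of 2 starts, chr6:6869484-6869783, minus strand: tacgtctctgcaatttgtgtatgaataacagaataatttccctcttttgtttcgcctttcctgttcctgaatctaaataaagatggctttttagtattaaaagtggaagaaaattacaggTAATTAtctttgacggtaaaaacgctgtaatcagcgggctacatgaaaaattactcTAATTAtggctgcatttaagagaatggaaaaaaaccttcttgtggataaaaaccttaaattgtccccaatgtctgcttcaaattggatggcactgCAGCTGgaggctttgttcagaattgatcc
The Dlx1 window, with 69.3% G and C, held no match to the 3 motifs. The Dlx2 window, with 66.3% G and C, held 1 TEAD core, a motif found in 14.7% of 32851 promoter windows of the same length. The Dlx6os1 window differed in base composition, with 35.7% G and C. It held 2 TAATTA motifs and 1 CAGCTG, where 5.29% of all windows hold at least 1 TAATTA, 0.49% hold 2 or more, and 16.3% hold CAGCTG. The window of the second Dlx6os1 start had 1 TAATTA. Such matches describe letters in a window and are not evidence of binding.

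Tissue markers were read against the labels. In dorsal telencephalon all 13 measured marker genes of that region lay above the array median in all 6 arrays, whereas 1 of 9 midbrain markers did. In forebrain and midbrain, 11 of 13 dorsal telencephalon markers and 5 of 9 midbrain markers did. There En1, Pax5, Lmx1b and Pitx3 were below the array median in all 6 arrays. Array medians ran from 5.03 to 5.1 at E11.5 and from 4.30 to 4.42 at E13.5, so levels were not compared between the experiments, and within groups arrays correlated with r of at least 0.9942. Yap1 read 11.07, 10.99 and 11.05 in YAP controls and 11.35, 11.23 and 11.33 with overexpression, a log2 difference of 0.27 that was not called (limma, adjusted p = 0.0551), and whether its probe set reads the transgene is not given in the sources used here. Nf2 read 8.41, 8.66 and 8.51 in Nf2 controls and 8.06, 8.27 and 8.11 in the knockout, a log2 difference of -0.38 (adjusted p = 0.246).

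All 5 members fell with YAP overexpression at E11.5, in a comparison in which 3.64% of all 17097 genes fell and 2.67% rose (6.31% were called in either direction). Dlx1, Dlx2, Dlx5 and Dlx6os1 changed by -2.19 to -1.87 on the log2 scale, and Dlx6, a dim gene, fell by 0.48. The groups did not overlap for any of the 5, and for 21.3% of all genes they did not overlap in either direction. Dlx1, Dlx6os1, Dlx2 and Dlx5 were, in that order, the 4 most reduced genes of all 17097, and Dlx6 had rank 524. These 4 were also ranked in 16 fits: the main one, the processing alternatives and the omission of each array of this experiment. They were the lowest 4 in 9 of the 16, none of which left out an array. Most of the 9 could not reorder these 4 among themselves. They kept the log2 changes, shifted all genes alike or altered only the values of other genes. Of the 9, only quantile normalization reworked the values of these genes. Array weights, with Dlx5 at rank 5, and the omissions did not keep the 4 lowest. The lowest place any of these 4 took was rank 7. A gene is called at a Benjamini-Hochberg adjusted p under 0.05 in limma over all genes, and in bulk tissue fewer cells of a type and less RNA per cell cannot be told apart.

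**Figure D1:**
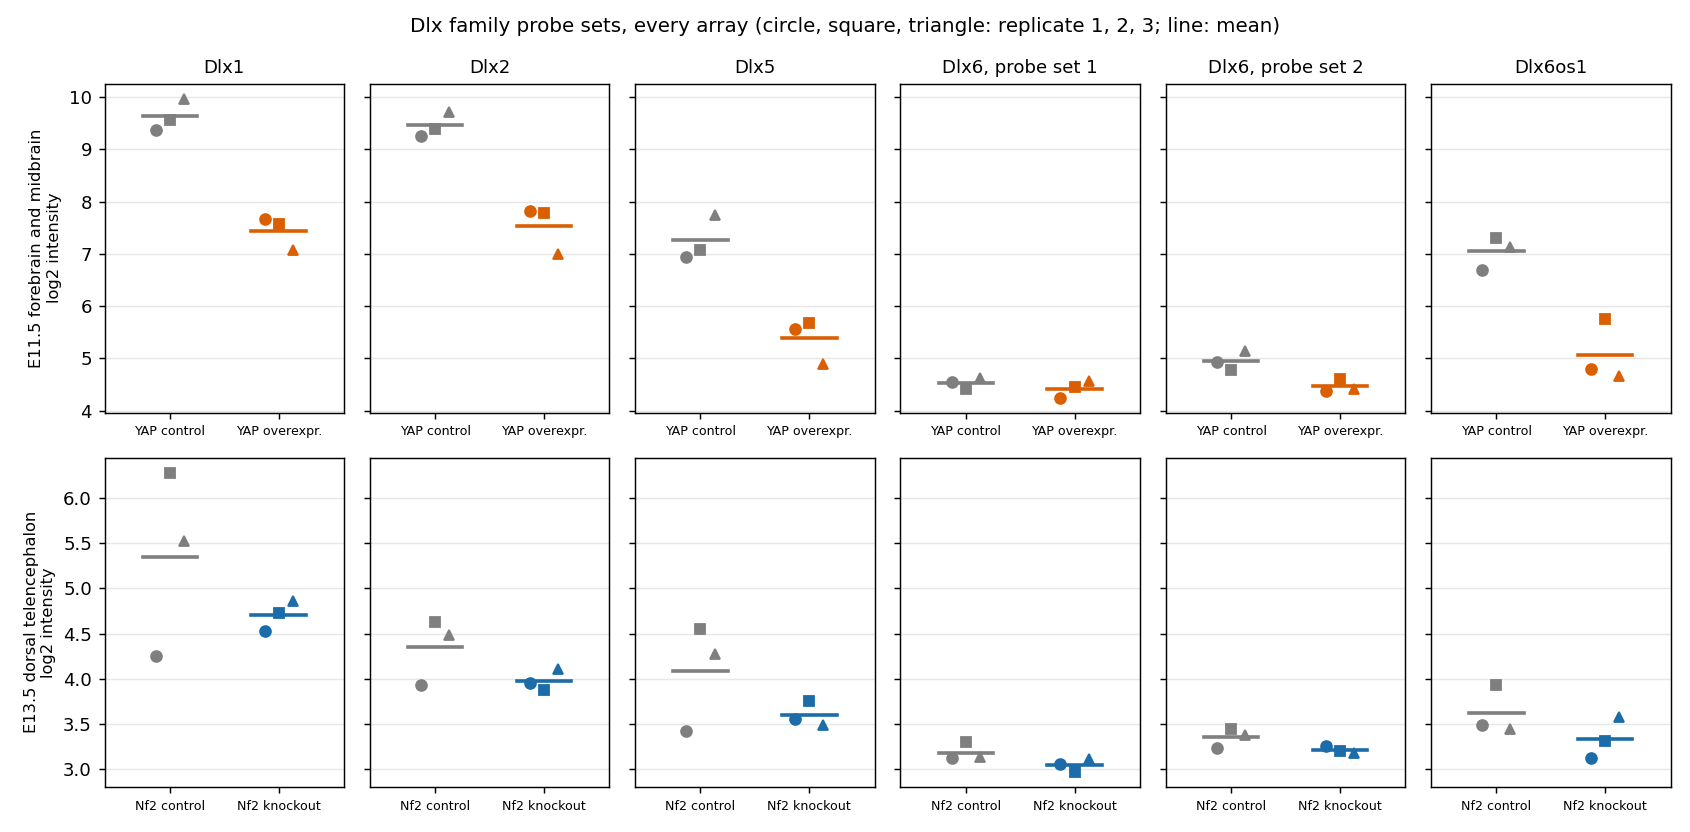
Log2 intensity of the 6 Dlx probe sets in every array, with E11.5 forebrain and midbrain in the top row and E13.5 dorsal telencephalon in the bottom row. Symbols give the replicate number and lines the group means. At E11.5 the 2 groups are apart for every probe set but Dlx6 probe set 1, and at E13.5 the Nf2 controls are more scattered than the knockouts for Dlx1, Dlx2 and Dlx5.

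Dlx1, which with Dlx2 opens the GABAergic programme in ventral progenitors, read 9.36, 9.56 and 9.97 in YAP controls and 7.67, 7.57 and 7.07 with overexpression. Every overexpression array was far below every control array. Dlx1 fell by 2.19 on the log2 scale (SE 0.38, 95% confidence interval -3.02 to -1.37, adjusted p = 0.00551), a level 4.57-fold lower. Dlx2, its neighbour and partner, read 9.26, 9.39 and 9.72 in controls and 7.83, 7.79 and 7.0 with overexpression. The groups were again apart, with the third overexpression array below the other two. Dlx2 fell by 1.92 (SE 0.22, interval -2.40 to -1.43, adjusted p = 0.000465), or 3.78-fold.

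Dlx5, which follows Dlx1 and Dlx2 in differentiating cells, read 6.95, 7.07 and 7.75 in controls and 5.57, 5.68 and 4.90 with overexpression. The third control was the highest and the third overexpression array the lowest, and the groups did not overlap. Dlx5 fell by 1.87 (SE 0.29, interval -2.50 to -1.24, adjusted p = 0.00276), or 3.66-fold. Dlx6os1 is a long noncoding RNA of the Dlx5 and Dlx6 locus that overlaps Dlx6 and is known to act on the enhancers of the pair. It read 6.70, 7.31 and 7.13 in controls and 4.79, 5.76 and 4.66 with overexpression. The second overexpression array stood above the other two but below every control. Dlx6os1 fell by 1.98 (SE 0.26, interval -2.54 to -1.41, adjusted p = 0.00104), or 3.94-fold.

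Dlx6, the homeobox partner of Dlx5, is the member these arrays measured least well. Its probe set 1452507_PM_at, which stands for the gene here as the brighter one, read 4.93, 4.78 and 5.15 in controls and 4.38, 4.61 and 4.42 with overexpression. The groups did not overlap, yet all 6 values were near or below the array medians. It fell by 0.48 (SE 0.10, interval -0.70 to -0.26, adjusted p = 0.0147). The other probe set, 1427563_PM_at, read 4.56, 4.42 and 4.63 against 4.25, 4.45 and 4.57, with overlapping groups and a difference of -0.11. In a fit over all 45037 probe sets, where 2.30% fell, 5 of the 6 Dlx probe sets fell without overlap between groups (10.3% of all were lower without overlap), and 1427563_PM_at did not pass (adjusted p = 0.664). The Dlx6 call was lost with the mean of its probe sets (-0.30, adjusted p = 0.0751), with only the 6 arrays of the experiment (0.0817), with a replicate block (0.0584), and without YAP control replicate 3 (-0.39, 0.0579), overexpression replicate 1 (-0.44, 0.0566) or overexpression replicate 3 (-0.46, 0.0519).

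Loss of Nf2 at E13.5 gave no call among the 5 members, in a comparison in which 0.0468% of all genes fell (0.252% were called in either direction). All 5 differences were negative, between -0.65 and -0.14 on the log2 scale, where 50.9% of all genes had a negative difference. Their unadjusted p-values ran from 0.114 to 0.297, so 0 members were under 0.05 unadjusted, where 3.09% of genes were lower at that level. None of the 6 Dlx probe sets passed in the fit over all probe sets either, where 0.0200% fell. The confidence intervals of the 5 genes reached down to -1.47 for Dlx1 and to -0.36 for Dlx6, so reductions of that size are within the error.

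Dlx1 read 4.25, 6.28 and 5.53 in Nf2 controls and 4.53, 4.73 and 4.86 in the knockout. The control arrays were scattered widely, with the first below every knockout array and the second far above them. The difference was -0.65 (SE 0.38, interval -1.47 to 0.18, adjusted p = 0.897). Dlx2 read 3.93, 4.63 and 4.48 in controls and 3.95, 3.88 and 4.11 in the knockout. The first control lay among the knockout arrays and the other two above them. The difference was -0.37 (SE 0.22, interval -0.85 to 0.12, adjusted p = 0.902). Dlx5 read 3.42, 4.55 and 4.28 in controls and 3.55, 3.76 and 3.49 in the knockout. Here too the first control was the lowest array of all. The difference was -0.48 (SE 0.29, interval -1.11 to 0.15, adjusted p = 0.899).

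For Dlx6, 1452507_PM_at read 3.24, 3.45 and 3.38 in Nf2 controls and 3.26, 3.20 and 3.18 in the knockout, a difference of -0.14 (SE 0.10, adjusted p = 0.922). Its other probe set, 1427563_PM_at, read 3.12, 3.30 and 3.13 against 3.06, 2.97 and 3.11, a difference of -0.14 without overlap between the groups. This separation was narrow, and 5.38% of all probe sets were lower without overlap. Dlx6os1 read 3.49, 3.93 and 3.44 against 3.12, 3.31 and 3.58, a difference of -0.28 (SE 0.26, adjusted p = 0.954). Both genes were dim in this tissue: 25.5% of probe sets were dimmer than 1452507_PM_at and 33.1% dimmer than that of Dlx6os1. The shares were 42.4% for Dlx5, 47.4% for Dlx2 and 56.6% for Dlx1. Of the 5 members, 0 lay above the array median in all 6 Nf2 arrays.

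The size of these differences turned on single Nf2 control arrays. Without Nf2 control replicate 1 the Dlx1 difference was -1.20 (adjusted p = 0.145), and without replicate 2 it was -0.18. The same 2 choices gave -0.58 and -0.23 for Dlx2, and -0.82 and -0.25 for Dlx5. They gave -0.20 and -0.10 for Dlx6 and -0.35 and -0.13 for Dlx6os1. The direction held in all of them and no member was called.

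**Figure D2:**
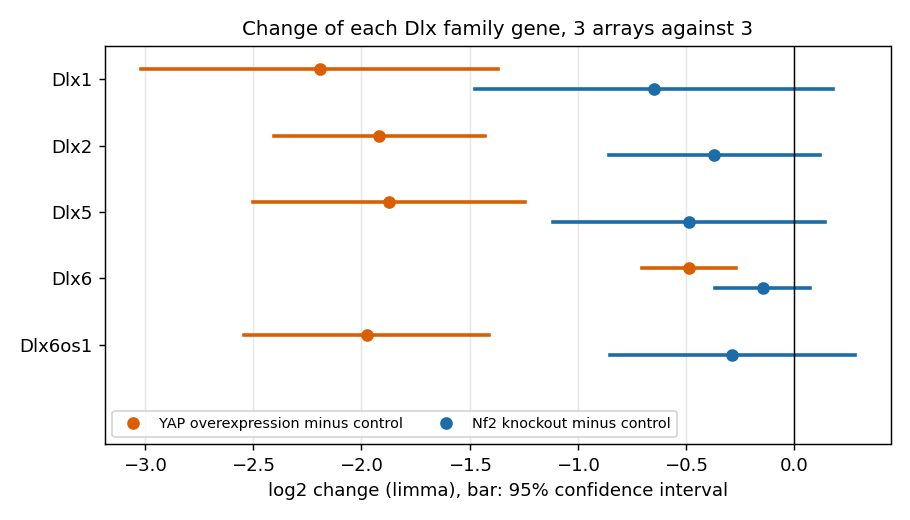
Log2 change of each member, YAP overexpression minus YAP control and Nf2 knockout minus Nf2 control, 3 arrays against 3, with the 95% confidence interval of the limma fit over all 12 arrays. All 5 YAP intervals lie below 0, and all 5 Nf2 intervals include 0.

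Whether the 2 manipulations differed in their effect on the family was tested as the difference of the 2 changes in the same fit. The experiments differ in age, tissue and manipulation together, so none of these can be told apart. The YAP change minus the Nf2 change was -1.55 for Dlx1 (SE 0.54, adjusted p = 0.337), -1.55 for Dlx2 (SE 0.32, adjusted p = 0.0776), -1.39 for Dlx5 (SE 0.41, adjusted p = 0.238), -0.34 for Dlx6 (SE 0.14, adjusted p = 0.438) and -1.69 for Dlx6os1 (SE 0.37, adjusted p = 0.0993). Thus 0 of 5 were called, where 0.281% of genes were called in either direction. All 5 had an unadjusted p between 0.000357 and 0.0337, where 5.66% of genes were lower at an unadjusted p under 0.05. Without YAP overexpression replicate 2, Dlx2 (adjusted p = 0.0443) and Dlx6os1 (adjusted p = 0.00559) were called, and with an intensity trend and a robust prior Dlx2 was (adjusted p = 0.0274).

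The spread between arrays was wide for 4 of the 5 members in Nf2 controls. It was not particular to the family: in that group the SD was 1.09 for Isl1 and 0.62 for Six3, genes of the ventral lists read below. In Nf2 controls the SD over 3 arrays was 1.03 for Dlx1, 0.59 for Dlx5, 0.37 for Dlx2, 0.27 for Dlx6os1 and 0.11 for Dlx6, against a median of 0.0950 over all genes. Of all genes, 99.9% had a smaller SD than Dlx1 in this group, 99.8% than Dlx5, 98.9% than Dlx2 and 95.6% than Dlx6os1, but 57.2% than Dlx6. Among genes within 0.5 of the same mean level these shares were 99.7%, 99.6%, 97.0%, 94.3% and 49.8%, so the spread of the first 4 was large for their signal. In Nf2 knockouts the SDs were 0.17, 0.14, 0.12, 0.23 and 0.04 in the same order, and 75.8% of genes had a smaller SD than Dlx1. Among genes of similar level the shares in the knockouts were 50.5%, 55.3%, 37%, 88.2% and 9.34%. The mean over the 5 members had an SD of 0.46 in Nf2 controls and 0.08 in Nf2 knockouts, and of 0.26 and 0.34 in YAP controls and YAP overexpression.

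The members moved together across the Nf2 controls. All 5 were highest in replicate 2 and 4 of 5 were lowest in replicate 1, where 30.4% of all genes were highest in replicate 2 and 29.9% lowest in replicate 1. Relative to the mean of the controls, the family mean was -0.49, 0.42 and 0.07 in the controls and -0.47, -0.38 and -0.31 in the knockouts. The first control was therefore at the level of the knockouts, and the difference between the groups lay in the other two controls.

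Genes of the ventral telencephalon were read beside this spread, since the dissected tissue is dorsal and the labels do not say how its ventral border was set. Isl1, a marker of the lateral ganglionic eminence, read 3.30, 5.38 and 3.78 in Nf2 controls and 3.97, 3.41 and 3.47 in the knockout. Gad1, which makes GABA, read 5.46, 5.91 and 5.72 against 5.19, 5.38 and 5.13. Lhx6, of interneurons from the medial ganglionic eminence, read 4.17, 4.67 and 4.67 against 3.80, 4.09 and 4.30, and Gad2 read 3.60, 4.14 and 3.65 against 3.45, 3.71 and 3.89. All 4 had their lowest control value in replicate 1, and Isl1, Gad1 and Gad2 their highest in replicate 2. Isl1, Gad1 and Lhx6 were read here at the brighter of 2 probe sets. With Nf2 loss the other set differed by -0.14, -0.09 and -0.05, against -0.54, -0.46 and -0.44 at the set used. The downstream list as a whole was mixed: of its 22 measured genes, 9 were lowest and 7 highest in control replicate 1, and 9 were highest and 6 lowest in replicate 2. Lhx8, of the basal forebrain, read 3.08, 3.06 and 2.83 against 2.86, 2.76 and 2.80, without that order. Every Lhx8 value lay below the lower quartile of its array (3.26 to 3.29), so its order says little. Gad2 was below the array median in every Nf2 array.

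Over the 22 genes downstream of Dlx or typical of ventral GABAergic neurons, the mean level was -0.06, 0.11 and -0.05 in the 3 Nf2 controls and -0.03, -0.12 and -0.13 in the knockouts. The 10 measured upstream genes of ventral patterning had means of -0.12, 0.14 and -0.02 in the controls and -0.06, -0.03 and -0.12 in the knockouts, 6 of them highest in control replicate 2 and 6 lowest in replicate 1. The defining genes Nkx2-1 and Gsx2 lay below the array median in all 6 Nf2 arrays: Nkx2-1 read 3.32, 3.26 and 3.20 in the controls and Gsx2 read 3.59, 3.83 and 3.76. The 13 dorsal telencephalon genes had means of 0.00, -0.01 and 0.01 in the controls and -0.13, -0.03 and -0.06 in the knockouts. Single dorsal genes went either way among the controls: Neurod2 read 8.84, 9.18 and 9.03, Tbr1 8.98, 9.18 and 9.22, and Emx2 9.67, 9.45 and 9.43. Pan-neuronal genes moved with the family, with means of -0.12, 0.08 and 0.04 in the controls and -0.22, -0.12 and -0.07 in the knockouts, and 6 of 9 were highest in control replicate 2 and 6 lowest in replicate 1. The part of ventral tissue, of migrating interneurons or of the number of neurons in this spread was not tested.

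**Figure D3:**
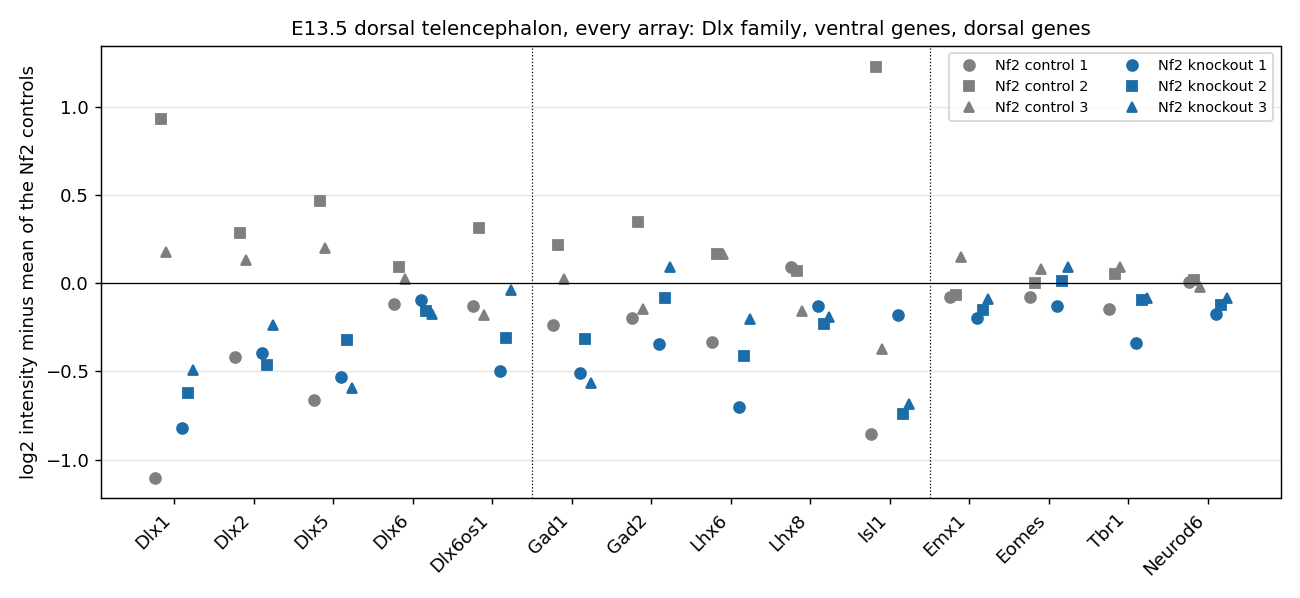
Log2 intensity minus the mean of the Nf2 controls in each of the 6 arrays of E13.5 dorsal telencephalon, for the Dlx members, genes of ventral telencephalon and GABAergic neurons, and dorsal genes. Dlx1, Dlx5 and Isl1 spread over more than 1 log2 unit among the 3 controls, with replicate 2 highest, while the dorsal genes are less scattered.

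Genes upstream of Dlx were mixed at E11.5. Of 12 listed genes of ventral patterning 10 were measured, 1 rose and 2 fell with YAP overexpression, and the median change was -0.02, against -0.01 over all genes. Gsx2, a homeobox gene of ventral progenitors upstream of Dlx, read 6.84, 6.85 and 6.99 in controls and 6.51, 6.38 and 6.07 with overexpression. Its groups did not overlap, and it fell by 0.57 (SE 0.11, adjusted p = 0.0092). Olig2, a bHLH factor of ventral progenitors, read 7.79, 8.07 and 8.23 against 7.18, 7.03 and 7.70 and fell by 0.73 (SE 0.18, adjusted p = 0.0317). Shh, the ventralizing signal, went the other way: it read 4.46, 4.95 and 4.53 against 5.11, 6.06 and 6.28 and rose by 1.17 (SE 0.24, adjusted p = 0.0125). Its control values all lay below the array medians.

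The other upstream genes did not pass with all arrays. Nkx2-1, of the medial ganglionic eminence, differed by -0.14 (adjusted p = 0.614). It was dim at E11.5, between 4.32 and 4.84 and below the array median in every array, so this difference says little. The Shh targets Gli1 and Ptch1 differed by 0.33 and 0.22 without overlap between groups, and neither was called. Leaving out 1 array left 1 to 3 upstream genes called. Gsx2 was called in all 6 such fits, Shh in 4 (not without YAP control replicate 1 or 3) and Olig2 in 2 (without control replicate 1 or overexpression replicate 3). Gsx1, the relative of Gsx2, differed by -0.34 (adjusted p = 0.159) and was called without control replicate 2 (-0.48).

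Of 28 listed genes downstream of Dlx or typical of its lineages, 22 were measured at E11.5: 9 fell, 1 rose and 12 were not called, with a median change of -0.41. Gad1 read 8.09, 8.18 and 8.49 in controls and 6.13, 6.90 and 6.25 with overexpression, and fell by 1.83 (SE 0.19, adjusted p = 0.000161). Lhx8, a homeobox gene of cholinergic and GABAergic cells of the basal forebrain, read 6.28, 8.05 and 8.14 against 5.77, 5.58 and 5.6. Its first control was much closer to the overexpression arrays than the other two, and it fell by 1.84 (SE 0.36, adjusted p = 0.0103). The calcium-binding Calb1 fell by 1.20 (adjusted p = 0.0236) and Slc32a1, the vesicular GABA transporter, by 1.16 (adjusted p = 0.0084).

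Lhx6 fell by 0.99 (adjusted p = 0.0076) and Gad2, the second GABA-synthesizing enzyme, by 0.75 (adjusted p = 0.0218). Meis2, Tshz1 and Ackr3 fell by 0.56, 0.53 and 0.38. Sp8, a zinc finger factor of the lateral eminence and of dorsal progenitors, was the gene that rose, by 0.47 (adjusted p = 0.0291). Isl1 read 9.14, 9.37 and 9.99 against 8.56, 8.80 and 8.23, a difference of -0.97, with -1.07 at its other probe set. Its groups did not overlap, as for 21.3% of all genes in either direction, but it was not called (limma, adjusted p = 0.223). The error in that fit is pooled over all groups and includes the wide spread of Isl1 in Nf2 controls (SD 1.09, against 0.44 in YAP controls and 0.29 with overexpression). Probe sets disagreed for 3 of the called genes, with the other sets of Calb1, Slc32a1 and Lhx6 reaching 0.08, -0.07 and -0.07. Leaving out 1 array gave 5 to 8 calls among the 22, with 5 without YAP control replicate 3 and 6 without overexpression replicate 3. Gad1, Lhx6, Lhx8, Slc32a1 and Tshz1 were called in all 6 such fits, Gad2 and Meis2 in 3, Calb1 in 2, and Ackr3 and Sp8 in 1. The 6 listed genes without a single-gene probe set were not analysed here.

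**Figure D4:**
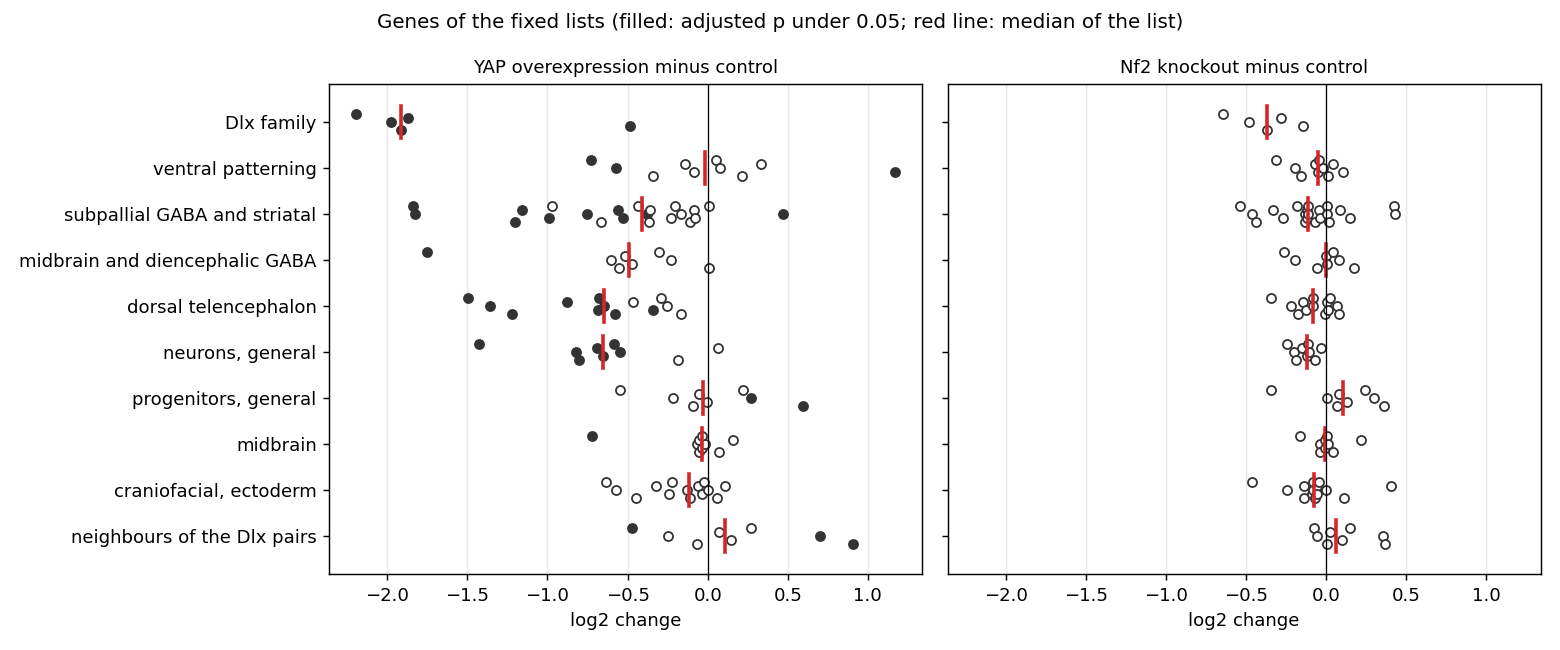
Log2 change of every measured gene of the lists, YAP overexpression on the left and Nf2 knockout on the right, with filled points at an adjusted p under 0.05 and a red line at the median of each list. The list of Dlx3, Dlx4 and Dlx1as is not drawn. In the YAP comparison the Dlx family has the lowest median, -1.92, followed by neurons and dorsal telencephalon at -0.65 each, and in the Nf2 comparison no list gene is called.

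Genes of other regions and cell types moved in the same arrays, and their part in the Dlx result was not tested. Dorsal telencephalon genes, which do not belong to the ventral programme, fell in 9 of 13 with a median of -0.65, with changes of -1.49 for Tbr1, -1.36 for Lhx9, -1.22 for Eomes and -0.88 for Neurog2. Probe sets disagreed for some of the called genes: other sets of Neurog1 and Pax6 reached 0.03 and 0.05, and that of Emx1 was -0.27. Pan-neuronal genes fell in 7 of 9 with a median of -0.65, with changes of -1.43 for Myt1l, -0.82 for Elavl4, -0.80 for Snap25 and -0.69 for Tubb3. The other probe sets of Myt1l reached 0.10. Of the neuron genes, 4 of 9 were called without YAP control replicate 3, overexpression replicate 1 or overexpression replicate 3. The mean of the neuron list was -0.06, -0.16 and 0.22 in the controls and -0.73, -0.36 and -0.79 with overexpression. It was highest in control replicate 3, as the Dlx family was, and in both lists overexpression replicate 2 was the highest of its group. The family mean was -0.23, -0.05 and 0.28 in the controls and -1.62, -1.39 and -2.06 with overexpression.

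GABAergic genes from outside the telencephalon, such as those of midbrain and thalamus, had a median of -0.49. Of 8 measured, 7 were lower at an unadjusted p under 0.05 in limma, where 19.6% of all genes passed in either direction. After adjustment 1 of 8 was called. That gene was Lhx1, which fell by 1.75 (SE 0.38, adjusted p = 0.0172). It read 9.46, 8.87 and 9.56 in controls and 6.95, 8.69 and 7.0 with overexpression, so that the second overexpression array was near the controls. With 1 array left out, Lhx1 was called only without YAP control replicate 2 (-1.96) or overexpression replicate 2 (-2.32). Of 9 midbrain genes 1 fell, Th, the rate-limiting enzyme of dopamine synthesis, by 0.72, and the median was -0.04. Of 8 progenitor genes 2 rose, the Notch effector Hes1 by 0.60 and the intermediate filament gene Vim by 0.27 (its other probe sets down to 0.08), and the median was -0.03. Hes1 was called in all 6 fits with 1 array left out, Vim in 1, without overexpression replicate 3.

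Dlx genes are also expressed in facial tissue that could stay on a dissected head, so craniofacial genes were counted. Of 14 measured genes 0 were called in limma, with a median of -0.12, and 2 had an unadjusted p under 0.05, as 19.6% of all genes did. Their mean was 0.15, 0.28 and -0.44 in YAP controls and -0.11, -0.40 and -0.05 with overexpression. The lowest craniofacial level was in control replicate 3, which had the highest Dlx level. Without that array Alx1 (-1.29), Col1a1 (-0.88) and Prrx1 (-0.74) were called, all lower with overexpression.

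With Nf2 loss, none of the 104 list genes beside the family was called in limma, and 10 had an unadjusted p under 0.05 (9.62%, against 6.24% of all genes). The medians were -0.37 for the Dlx family, -0.11 for downstream genes, -0.05 for upstream genes, -0.08 for dorsal telencephalon, -0.12 for neurons and 0.11 for progenitors, against 0.00 over all genes. Gad1 differed by -0.46 (adjusted p = 0.727) without overlap between the groups, as 6.09% of all genes were lower without overlap, and Lhx6 by -0.44 (adjusted p = 0.741). Their other probe sets differed by only -0.09 for Gad1 and -0.05 for Lhx6. Gad2, Lhx8 and Gsx2 differed by -0.11, -0.18 and -0.05.

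The genes whose pattern over the 6 arrays of an experiment was most like the mean of the 5 members were named by Pearson r, as a description, among genes with an SD of at least 0.3 over those arrays. At E11.5 the arrays fall into 2 separate groups, so any called gene correlates well. The 8 highest of 1386 genes were Klhl24, St18, Plcb1, Elavl4, Nkain4, Slc39a3, Plcxd2 and Gdpd1, with r from 0.991 to 0.9955. St18, a zinc finger factor of differentiating neurons, read 9.35, 9.49 and 9.61 in controls and 7.90, 8.28 and 7.58 with overexpression, and fell by 1.56 (SE 0.14, adjusted p = 7.36e-05). The 8 lowest were Pinx1, Trim71, Krt19, Slc16a1, Trip6, Eno1b, Pgm1 and Tmem88, with r from -0.9969 to -0.9798. Trim71, an RNA-binding factor of early progenitors, read 6.23, 5.86 and 5.55 against 7.48, 7.38 and 7.84 and rose by 1.69 (SE 0.16, adjusted p = 8.71e-05). The members themselves had r from 0.932 (Dlx6) to 0.994.

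At E13.5 the 8 highest of 489 genes were Megf11, Ms4a2, Dync1i1, Dlx3, Lhx6, Gad1, Fcamr and Isl1, with r from 0.836 to 0.914, and none of them was called with Nf2 loss. Lhx6, Gad1 and Isl1 belong to the downstream list and Dlx3 is a further gene of the family. Dlx3 was dim here and above the array median only in control replicate 2 (4.54). The other probe sets of Lhx6, Gad1, Isl1 and Dlx3 differed by only -0.05, -0.09, -0.14 and -0.05 with Nf2 loss. The sets compared here differed by -0.44, -0.46, -0.54 and -0.27. The 8 lowest were Vstm4, A630026N12Rik, Lmln, Stat4, Dleu2, Orc1, Fam181a and Mboat1, with r from -0.944 to -0.846. The members had r from 0.772 (Dlx6os1) to 0.991 (Dlx1), and here the pattern is mostly the spread among the controls.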

How the data were processed

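Total RNA (100 ng per sample) was labelled with biotin and read on Affymetrix arrays. The deposited values are log2 intensities per probe set. RMA is named in the submitters' processing notes, as are Partek 6.5 and Affymetrix Expression Console 1.1, without their roles. Probe sets (45037) were named through the platform table of 2016, 28898 with a single symbol, and for each of 17097 genes the brightest one over the 12 arrays was kept. Using limma 3.58.1 (R 4.3.3), 4 group means were fitted over the 12 arrays, two-sided, with Benjamini-Hochberg adjustment over all genes, or over all probe sets where said. Each gene has 1 error pooled over the 4 groups, so an SE or interval given for 1 experiment also holds the spread of the other. For Dlx1 the SE was 0.38 in both comparisons, against 0.20 with only the YAP arrays and 0.45 with only the Nf2 arrays. With 3 arrays against 3 an exact permutation test cannot go below p = 0.1, and the number of arrays limits the precision. The fit was tested on simulated data.

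The members, the 11 gene lists (123 genes, 109 measured) and the alternatives were chosen with earlier results of these data known. Named list genes are the called genes of the largest change in each direction, up to 4 per list, plus the measured defining genes Gsx2, Nkx2-1, Gad1, Gad2, Lhx6 and Lhx8. Isl1, Six3, Gsx1, Gli1, Ptch1, Meis2, Tshz1, Ackr3, Neurod2, Neurog1, Pax6, Emx1, Emx2 and the craniofacial and neighbouring genes named beyond that rule were chosen after their values were seen. Residuals of same-numbered Nf2 arrays correlated with r of 0.271, 0.212 and 0.207, but no label pairs these arrays. The main fit used no pairing, so the Nf2 errors, intervals and p-values given above are unpaired. A replicate block, other scalings, probe set choices, filters and the omission of each array were tried as alternatives.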

Additional observations from a re-analysis of the deposited data

How the results depend on the processing

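No member change turned its sign: of 247 member changes under alternatives, 238 stayed on the same side of the threshold, 6 lost a call and 3 gained one. Many signs could not turn: a replicate block, a trend with robust prior, or only the arrays of 1 experiment altered the error and kept the log2 change. The count also holds the Nf2 and difference tests, where no member was called in the main fit. The 6 lost calls were those of Dlx6 with YAP overexpression, and Dlx6 had no value once dim genes were left out. Dlx1, Dlx2, Dlx5 and Dlx6os1 kept their YAP call under all alternatives run. Of all genes, 1078 were called for YAP, 361 with only the 6 arrays of the experiment, 689 with a replicate block and 529 to 1241 without 1 array. For Nf2, 43 were called, 25 with only the 6 arrays, 21 with the replicate block, 67 with array weights and 20 to 32 without 1 array. The replicate block changed no Nf2 call of a member. Residuals of same-numbered YAP arrays correlated with r of 0.0971, -0.195 and -0.204. Differently numbered YAP arrays reached 0.304 (control replicate 2 with overexpression replicate 3), so these values do not show which arrays, if any, belong together. For the difference of the 2 effects, 48 genes were called, 21 with the replicate block, 129 with an intensity trend and robust prior, and 21 to 161 without 1 array. Of the members, 0 were called there, 1 with the trend and robust prior, and 0 to 2 without 1 array. The cause of these shifts was not tested, beyond the fewer arrays of the smaller fits. Of the YAP calls 42.3% were higher, 52.8% with array medians subtracted and 49.7% with quantile normalization, and the family's direction and calls held under both. No scaling moved the median of all genes by over 0.1.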

Other observations

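The other genes of the family and the neighbours of the 2 clusters showed no common direction at E11.5. Dlx3 and Dlx4, which act mainly outside the brain, differed by 0.01 and -0.05 with YAP overexpression, and neither was called. Dlx1as, a transcript that overlaps Dlx1, read 6.89, 7.45 and 7.56 in YAP controls and 6.21, 6.71 and 5.67 with overexpression. Its groups did not overlap, and it fell by 1.1 (SE 0.28, limma adjusted p = 0.0388), but with 1 array left out it was called only without YAP control replicate 1 (-1.31) or overexpression replicate 2 (-1.36). Of 8 neighbouring genes 2 rose and 1 fell, with a median of 0.11. The next coding genes on either side of the clusters were Metap1d and Itga6 on chromosome 2 and Sem1 and Sdhaf3 on chromosome 6. They differed by -0.25, 0.27, -0.07 and 0.07 and were not called. Farther out, Pdk1, a kinase of glucose metabolism, rose by 0.91 (adjusted p = 0.0453, called in 1 of 6 fits with an array left out), Asns, asparagine synthetase, rose by 0.70 (adjusted p = 0.00166), and Tac1, which encodes substance P, fell by 0.47 (adjusted p = 0.0103), with -0.04 at its other probe set. With Nf2 loss, Dlx3 differed by -0.27 (-0.05 at its other probe set), Dlx4 by -0.09 and Dlx1as by -0.29, and 0 of the 11 genes were called.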
